A study of Mus musculus with 8 samples.

Results

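The genes described here mark the oligodendrocyte lineage, from its precursors to newly formed oligodendrocytes. They were chosen by symbol: Pdgfra, Cspg4, Vcan and Ptprz1 as precursor genes, Olig1, Olig2 and Sox10 as transcription factors of the lineage, and Gpr17, Bmp4 and Enpp6 as genes of precursors committed to differentiate and of newly formed oligodendrocytes. All 10 were found among the 54752 genes of the count tables, and all 10 passed the filter on low counts that kept 17136 genes. RNA-seq was done on the right cerebral cortex of 8 male adult wild-type C57BL/6 mice, taken 3 weeks after bilateral carotid artery stenosis (BCAS, n = 4) or a sham operation (Sham, n = 4). In BCAS a wire coil around each common carotid artery narrows the vessel and lowers blood flow to the forebrain, here with the tighter coil on the right, and the Sham mice had the surgery without coils. Each library came from 1 mouse, and the degree of hypoperfusion in each mouse was not analysed here.

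Oligodendrocyte precursors are dividing glial cells spread through grey and white matter that depend on platelet-derived growth factor (PDGF) signalling through the receptor encoded by Pdgfra. As they differentiate they lose Pdgfra and the proteoglycan encoded by Cspg4 (NG2), pass through a short stage marked by Gpr17, Bmp4 and Enpp6, and then switch on myelin genes. Olig1, Olig2 and Sox10 are used throughout the lineage, in precursors and in myelinating cells. In hypoperfused white matter, loss of oligodendrocytes and a response of their precursors are classical observations.

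The libraries held 16759364 to 21794435 counted reads, and 3 reads corresponded to 0.138 to 0.179 CPM (the reads of a gene scaled to a fixed library total). BCAS mouse 2 was the BCAS library nearest to the Sham libraries in most members and in the marker lists for microglia, neurons, astrocytes and fibroblasts, and BCAS mouse 1 was the farthest from them in these same lists. Sham mouse 3 had the lowest summed level of 20 mature myelin genes, 4477 CPM against 6882 to 7121 CPM in the other Sham mice. In whole tissue, fewer cells of a type and less RNA per cell cannot be told apart, and since a CPM is a share of a library, a gene can also rise because others fell.

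Of the 10 genes, 7 were higher in BCAS than in Sham and none was lower (edgeR quasi-likelihood test, Benjamini-Hochberg adjusted p under 0.05 over 17136 genes). Among all genes tested, 19.2% were called higher and 12.8% lower, and the median log2 fold change was -0.01. All 4 precursor genes and all 3 genes of the newly formed stage rose, by a median log2 fold change of 0.61 and 0.73, while 0 of 3 lineage transcription factors passed the test (median 0.25, or 0.16 without Sham mouse 3 or BCAS mouse 1 and 0.34 without BCAS mouse 2). Only Cspg4 and Bmp4 among the 10 also passed a log2 fold change of 1, as did 11% of all genes upward. In 6 of the 10 every BCAS mouse was above every Sham mouse, against 18.4% of all genes tested. The count of 7 fell to 2 without Sham mouse 1, 2 or 4, to 3 without Sham mouse 3 and to 4 without BCAS mouse 3 or 4, stayed at 7 without BCAS mouse 1 and rose to 9 without BCAS mouse 2. Cspg4 and Bmp4 kept their call in every one of these 8 fits.

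**Figure D1:**
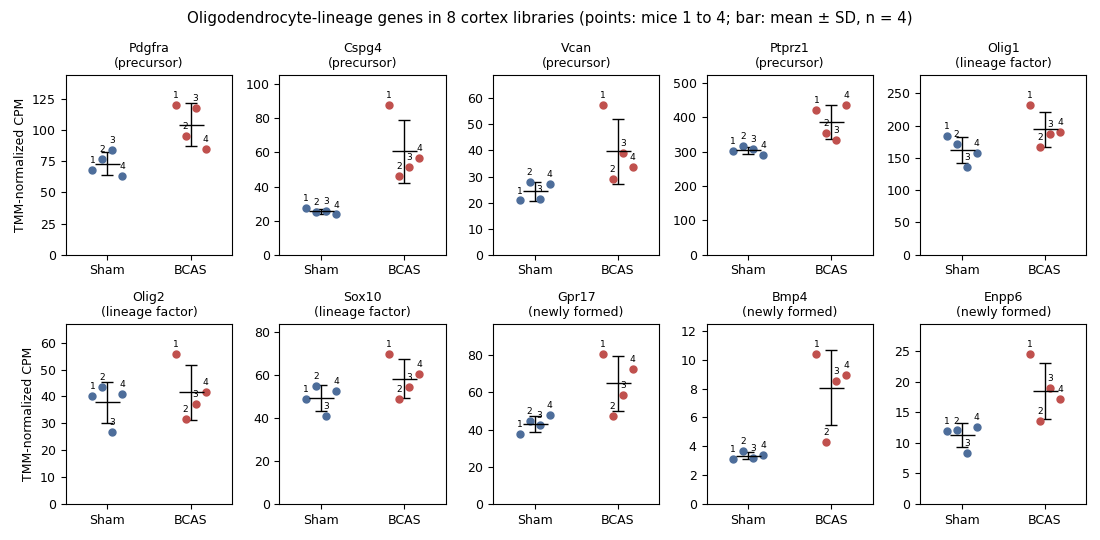
Expression of the 10 genes in each library, as CPM scaled by the trimmed mean of M-values (TMM), on linear axes from 0. Points are mice 1 to 4 of each group, and bars are the mean ± SD (n = 4). Cspg4 and Bmp4 show the widest separation, 25.4 against 60.5 CPM and 3.34 against 8.05 CPM, and the points of Olig1, Olig2, Sox10 and Gpr17 overlap between groups.

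**Figure D2:**
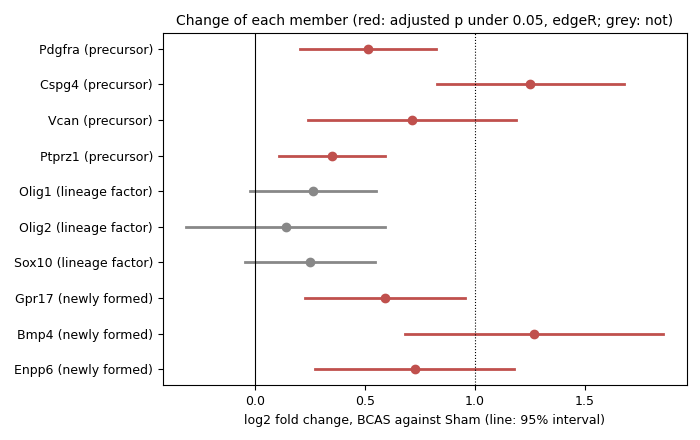
Log2 fold change of each gene, BCAS against Sham, from edgeR, with the 95% interval as a line. The intervals of Olig1, Olig2 and Sox10 include 0, and the dotted line marks a log2 fold change of 1, which the estimates of Cspg4 (1.25) and Bmp4 (1.27) exceed.

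Promoter sequence is shown for Cspg4 and Bmp4, which changed most, and for Pdgfra, the receptor that defines the precursor. The bases lie upstream of the start that RefSeq (GRCm38.p6) gives, are taken from RefSeq, and read 5′ to 3′ on the strand of the gene. The annotation used for counting starts Cspg4 71 bases earlier than RefSeq, and its bases stop there, and it leaves a gap of 41 bases between the last base shown for Pdgfra and the start of that gene. Capitals mark CANNTG, the E-box that basic helix-loop-helix factors such as Olig2 bind, and ACAAT, a core of the sites that SOX factors bind, each on either strand.
Cspg4, chr9:56864854-56865032, plus strand, 179 bases: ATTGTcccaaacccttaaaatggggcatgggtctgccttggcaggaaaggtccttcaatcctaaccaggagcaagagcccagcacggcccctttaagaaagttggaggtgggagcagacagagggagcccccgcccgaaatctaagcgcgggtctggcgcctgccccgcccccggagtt
Bmp4, chr14:46390670-46390919, minus strand, 250 bases: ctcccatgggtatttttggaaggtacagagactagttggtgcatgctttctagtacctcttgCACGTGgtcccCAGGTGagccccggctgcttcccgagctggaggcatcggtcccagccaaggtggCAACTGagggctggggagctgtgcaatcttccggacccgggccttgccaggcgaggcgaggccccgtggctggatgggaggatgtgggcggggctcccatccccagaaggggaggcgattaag
Pdgfra, chr5:75152001-75152250, plus strand, 250 bases: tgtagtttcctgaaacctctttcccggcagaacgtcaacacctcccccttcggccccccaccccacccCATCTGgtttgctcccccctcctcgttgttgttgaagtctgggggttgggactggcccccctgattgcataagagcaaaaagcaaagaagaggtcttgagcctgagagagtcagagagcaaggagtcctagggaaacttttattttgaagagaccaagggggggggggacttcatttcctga
Windows of 250 bases upstream of the RefSeq start were read for 7 of the 10 genes (Pdgfra, Cspg4, Vcan, Ptprz1, Olig2, Bmp4 and Enpp6). CANNTG was present in 3 of them, with 3 copies for Bmp4 and 1 each for Pdgfra and Vcan, and 66.2% of 32851 mouse promoter windows of that length held at least 1. The copy in Pdgfra is CAGATG read on the opposite strand, a form found in 14.4% of windows, and CAGCTG, present in 13% of windows, was in none of the 7. The windows of Cspg4 and Olig2 run 71 and 93 bases into the gene as counted, which leaves 179 and 157 bases upstream of it. ACAAT was present in 3 windows, those of Cspg4, Olig2 and Enpp6, against 27.7% of all windows, but in Olig2 it lies inside the gene as counted, so 2 genes held it upstream. ACAAAG was in none, against 16.5% of all windows. CAGATG and CAGCTG are themselves forms of CANNTG, and all motifs were searched on both strands.

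Pdgfra (ENSMUSG00000029231.15, chr5:75152292-75198215, plus strand, GRCm38) encodes the PDGF receptor alpha, the survival and growth receptor of precursors. It measured 68.1, 77.1, 84.3 and 63.3 CPM in Sham mice 1 to 4 and 120.0, 95.7, 118 and 84.6 CPM in BCAS mice 1 to 4. The groups did not overlap, but BCAS mouse 4, the lowest, stood just above Sham mouse 3, the highest. The mean rose from 73.2 ± 9.37 to 104.5 ± 17.3 CPM (SD, n = 4), a log2 fold change of 0.51 (SE 0.14, adjusted p = 0.0238, edgeR). The call was lost without Sham mouse 1, 2 or 4 or BCAS mouse 3 (adjusted p = 0.0732, 0.0567, 0.0706 and 0.0667, edgeR). Of the exon bases counted for Pdgfra, 6.5% are also covered by other annotated genes, and the share is 7.26% for Olig1 (antisense Gm15966) and 3.96% for Bmp4 (antisense Gm15217).

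Cspg4 (ENSMUSG00000032911.6, chr9:56865033-56899870, plus strand) encodes the NG2 proteoglycan of the precursor surface, which pericytes also carry. It measured 27.5, 25.2, 25.5 and 23.6 CPM in the Sham mice and 87.6, 46.2, 51.5 and 56.8 CPM in the BCAS mice. Every BCAS library was far above the Sham range, and BCAS mouse 1 was the highest. The mean rose from 25.4 ± 1.58 to 60.5 ± 18.6 CPM, a log2 fold change of 1.25 (SE 0.19, adjusted p = 0.00331). Across all 17 alternative fits the log2 fold change stayed between 1.03 and 1.37 and the adjusted p of edgeR, limma or DESeq2 reached at most 0.018.

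Vcan encodes versican, a large chondroitin sulfate proteoglycan of the matrix around precursors (ENSMUSG00000021614.16, chr13:89655312-89742509, minus strand). Its levels were 20.8, 27.9, 21.3 and 27.1 CPM in Sham and 57.3, 29.0, 38.9 and 33.7 CPM in BCAS. BCAS mouse 2 lay close to the upper Sham mice and BCAS mouse 1 well above the rest. The log2 fold change was 0.71 (SE 0.21, adjusted p = 0.0320). It missed the threshold without any 1 of the Sham mice 1 to 4 or without BCAS mouse 3 (adjusted p = 0.0897, 0.0583, 0.0766, 0.0624 and 0.0682, edgeR).

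Ptprz1 (chr6:22875502-23052916, plus strand) encodes a receptor-type phosphatase that carries chondroitin sulfate chains and is made by precursors and astrocytes. Sham mice 1 to 4 had 303, 316, 308 and 289.6 CPM and BCAS mice 421, 356, 335 and 436 CPM. The groups did not overlap, and here BCAS mouse 4 was the highest and BCAS mouse 3 the lowest of the BCAS mice. The increase was the smallest of the 7 called, a log2 fold change of 0.35 (SE 0.11, adjusted p = 0.0374). The call was lost without any 1 of the Sham mice 1 to 4 or without BCAS mouse 4 (adjusted p = 0.0937, 0.0812, 0.0720, 0.103 and 0.1000, edgeR).

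The lineage transcription factors gave smaller differences. Olig1 (chr16:91269772-91271933, plus strand), a basic helix-loop-helix factor that promotes differentiation, measured 183, 172, 136 and 158 CPM in Sham and 231, 167, 188 and 190.3 CPM in BCAS. Sox10 (chr15:79154908-79165240, minus strand), the factor that activates myelin genes, measured 48.7, 54.5, 40.7 and 52.2 CPM in Sham and 69.5, 48.6, 54.5 and 60.2 CPM in BCAS. In Olig1 and Sox10 the groups overlapped, with Sham mouse 3 lowest of all and BCAS mouse 2 inside the Sham range. For Sox10, BCAS mouse 3 (54.47 CPM) was also inside it, just below Sham mouse 2 (54.52 CPM). Their log2 fold changes were 0.26 (95% interval -0.03 to 0.55, adjusted p = 0.139) and 0.25 (-0.05 to 0.54, adjusted p = 0.165, edgeR). Without BCAS mouse 2 Olig1 and Sox10 passed the test, at log2 fold changes of 0.34 and 0.34 (adjusted p = 0.0421 and 0.0419, edgeR). Without Sham mouse 3 they were at 0.18 and 0.16 (adjusted p = 0.304 and 0.355, edgeR), and without BCAS mouse 1 also at 0.18 and 0.16 (adjusted p = 0.231 and 0.317, edgeR).

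Olig2, the factor that specifies the lineage, lies next to Olig1 (chr16:91225457-91228677, plus strand), 41095 bases before it. It measured 40.2, 43.6, 26.6 and 40.9 CPM in Sham and 55.7, 31.7, 37.2 and 41.5 CPM in BCAS. Apart from BCAS mouse 1, every BCAS mouse lay inside the Sham range. The log2 fold change of 0.14 had an interval of -0.31 to 0.59 (adjusted p = 0.618), and it was -0.0071 without Sham mouse 3 and -0.024 without BCAS mouse 1, so its direction rested on single libraries.

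Gpr17, Bmp4 and Enpp6 mark the step between precursor and myelinating cell. Gpr17 encodes a receptor of committed precursors that is switched off before myelination (chr18:31942997-31949636, minus strand). It measured 37.4, 44.7, 42.5 and 47.8 CPM in Sham and 80.6, 47.4, 58.7 and 72.8 CPM in BCAS. BCAS mouse 2 lay just below Sham mouse 4, so the groups overlapped by that 1 pair. The log2 fold change was 0.59 (SE 0.16, adjusted p = 0.0259), and the call was lost without any 1 of the Sham mice 1 to 4 or without BCAS mouse 4 (adjusted p = 0.0764, 0.0626, 0.0569, 0.0511 and 0.0683, edgeR). Of the exon bases of Gpr17, 3.62% are shared with the antisense gene Lims2, whose own log2 fold change was 0.12 (adjusted p = 0.675).

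Bmp4 encodes a bone morphogenetic protein (BMP), a secreted factor that is made at this stage and that, applied to precursors, drives astrocyte over oligodendrocyte fates. At chr14:46383520-46390669 on the minus strand, it had the lowest level of the 10 genes, 55, 59, 56 and 56 reads in Sham and 237, 84, 158 and 165 reads in BCAS. As CPM these were 3.12, 3.68, 3.20 and 3.37 against 10.4, 4.32, 8.51 and 8.97. The Sham mice were tightly grouped, BCAS mouse 2 was only slightly above them, and the other BCAS mice were far above. The log2 fold change was 1.27 (SE 0.26, adjusted p = 0.00960), and it stayed between 1.01 and 1.49 with an adjusted p of at most 0.036 over the 17 alternative fits by edgeR, limma and DESeq2.

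Enpp6 encodes a choline-specific phosphodiesterase that newly formed oligodendrocytes switch on within grey and white matter (chr8:46986887-47096762, plus strand). It measured 11.9, 12.03, 8.34 and 12.7 CPM in Sham and 24.5, 13.5, 19.0 and 17.1 CPM in BCAS. Every BCAS mouse was above the Sham mice, BCAS mouse 2 by the least, and Sham mouse 3 lay below the other Sham mice. The log2 fold change was 0.73 (SE 0.20, adjusted p = 0.0268), or 0.60 without Sham mouse 3. The call was lost without any 1 of the Sham mice 1 to 4 or without BCAS mouse 3 or 4 (adjusted p = 0.0632, 0.0610, 0.0573, 0.0535, 0.0639 and 0.0515, edgeR).

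The BCAS mice differed among themselves in the same order across most of the genes. BCAS mouse 1 was the highest BCAS library in 9 of the 10 and BCAS mouse 2 the lowest in 8. Taken as log2 CPM minus the Sham mean, the precursor genes averaged 1.06, 0.44, 0.64 and 0.60 in BCAS mice 1 to 4. The genes of the newly formed stage averaged 1.23, 0.27, 0.86 and 0.94. The transcription factors averaged 0.54, -0.06, 0.13 and 0.23, with Sham mouse 3 at -0.33. Precursor and newly formed genes therefore stood side by side, with the newly formed genes ahead in BCAS mice 1, 3 and 4 and behind in BCAS mouse 2. The difference between these sets was not tested.

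**Figure D3:**
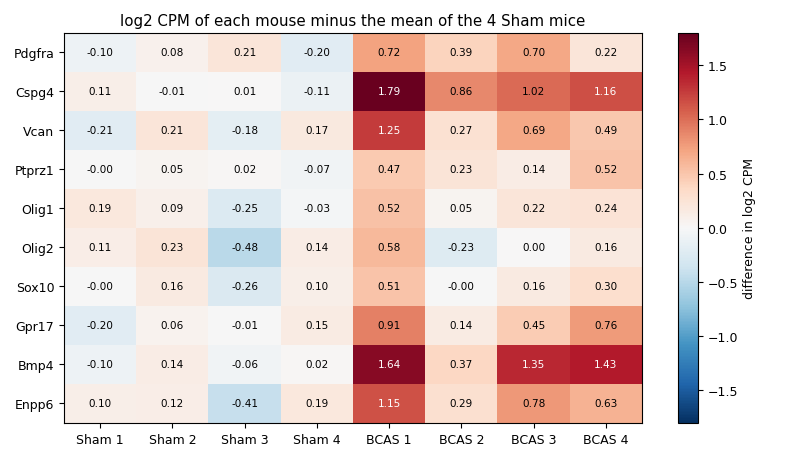
Log2 CPM of each gene (rows) in each mouse (columns) minus the mean of the 4 Sham mice. Red is above and blue below the Sham mean. BCAS mouse 1 is the reddest column, with 1.79 for Cspg4, and Sham mouse 3 is low for Olig2 (-0.48) and Enpp6 (-0.41).

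Ratios of read counts within a library compared the genes with each other, as a description. The ratio of Cspg4 to Pdgfra was 0.303 to 0.403 in Sham and 0.437 to 0.730 in BCAS, and that of Cspg4 to Sox10 was 0.452 to 0.628 and 0.943 to 1.26. Each of these ratios was higher in every BCAS mouse than in any Sham mouse. The ratios of Gpr17, Bmp4, Enpp6 and Olig2 to Pdgfra, of Olig2 to Olig1 and of Gpr17 to Sox10 overlapped between the groups. Per kilobase of exon the Sham means ran from 75.0 CPM for Olig1 and 21.3 CPM for Ptprz1, through 16.1 CPM for Sox10, 14.95 CPM for Olig2, 8.30 CPM for Gpr17, 7.31 CPM for Pdgfra and 2.13 CPM for Cspg4, to 1.75 CPM for Enpp6, 1.68 CPM for Vcan and 1.49 CPM for Bmp4. The Sham ranges of Sox10 and Olig2, of Gpr17 and Pdgfra, and of the 3 lowest genes overlapped on this scale. In BCAS Olig1 was still the highest, at 89.8 CPM per kilobase, and Cspg4 had reached 5.07 and Bmp4 3.58 CPM per kilobase.

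Of 19 further genes of precursors, 4 were higher and 3 lower, shares near the 19.2% and 12.8% of all genes tested, with a median log2 fold change of 0.17 against -0.01 over all genes. Fabp7, a fatty acid binding protein of glial progenitors, rose by 1.54 (SE 0.34, adjusted p = 0.0120, edgeR), the matrix protein gene Matn4 by 1.16 (SE 0.24, adjusted p = 0.0094) and Tmem100 by 0.96 (SE 0.18, adjusted p = 0.0065). These kept their call without any 1 library, as did Lnx1, a ubiquitin ligase gene that fell by 0.55 (SE 0.10, adjusted p = 0.0067). Kcnip3 and Tnr, the gene of tenascin-R, fell by 0.44 and 0.24 (adjusted p = 0.0498 and 0.0338, edgeR), calls that were lost without any 1 of the Sham mice or BCAS mouse 3 or 4 (adjusted p up to 0.117 and 0.0902). Other precursor markers gave 0.31 for Lhfpl3, 0.40 for C1ql1 and 0.48 for Neu4 (adjusted p = 0.133, 0.170 and 0.0739, edgeR), none past the test.

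Of 19 further genes of newly formed oligodendrocytes that could be tested, 5 were higher and 0 lower, at a median of 0.24. Among all genes tested, 19.2% were higher and 12.8% lower. Itpr2, a calcium channel of the endoplasmic reticulum that names this stage in cell atlases, rose by 1.11 (SE 0.20, adjusted p = 0.0066, edgeR) and Frmd4a by 0.76 (SE 0.17, adjusted p = 0.0146), each also without any 1 library. Astrocyte and microglia markers rose too, as given below, and which cells carried the Itpr2 and Frmd4a transcripts was not tested. Tcf7l2, a Wnt effector of this stage, rose by 0.74 (SE 0.25, adjusted p = 0.0473), a call that held only in the fits without Sham mouse 2 or BCAS mouse 2 (adjusted p up to 0.121 in the others). Bcas1, despite its symbol a myelin-stage gene unrelated to the surgery, gave 0.54 (adjusted p = 0.0985, edgeR). The count of 5 fell to 2 without Sham mouse 1 or 4 or BCAS mouse 1, 3 or 4, to 3 without Sham mouse 2 or 3, and rose to 8 without BCAS mouse 2.

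Of 20 genes of mature myelin tested, 1 was higher and 0 lower, against 19.2% and 12.8% of all genes tested, with a median of 0.11. The exception was Trf, transferrin, at 1.25 (SE 0.39, adjusted p = 0.0401, edgeR), which overlapped between groups and was called only without BCAS mouse 2 among the fits that left out 1 library (adjusted p up to 0.0979 in the others). Mbp, a major myelin protein, gave 0.43 (adjusted p = 0.163, edgeR). The summed level of the list was 4477 to 7121 CPM in Sham and 9278, 6162, 8047 and 7941 CPM in BCAS mice 1 to 4. The groups thus overlapped through BCAS mouse 2 alone. Without BCAS mouse 2 the count was 5 higher, and without Sham mouse 3 it was 2 lower and 0 higher.

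Regulators of differentiation were counted as activators and inhibitors, beside the 19.2% higher and 12.8% lower among all genes tested. Among 10 activators, 4 were higher and 0 lower (median 0.35), led by the chromatin remodeller Chd7 at 1.15 (SE 0.21, adjusted p = 0.0070, edgeR) with Tcf7l2 also among them. Chd7 held without any 1 library, and it was the only activator called without Sham mouse 1 or 4 or BCAS mouse 3 or 4; the count was 2 without Sham mouse 3 and 6 without BCAS mouse 2. Myrf, the master regulator of myelin genes, gave 0.28 (adjusted p = 0.194, edgeR).
Among 13 inhibitors, 4 were higher and 2 lower (median 0.17), against 19.2% and 12.8% of all genes tested. The adhesion receptor gene Adgrg1 rose by 0.74 (SE 0.17, adjusted p = 0.0157), the Notch ligand gene Jag1 by 0.65 (SE 0.17, adjusted p = 0.0218) and Notch1 by 0.65 (SE 0.14, adjusted p = 0.0116, edgeR). Sox5 fell by 0.79 (SE 0.12, adjusted p = 0.0039) and Lingo1, a neuronal receptor component that restrains myelination, by 0.98 (SE 0.30, adjusted p = 0.0373, edgeR). Neuron markers also fell, as given below, and which cells the changes of these inhibitors arose in was not tested. Notch1 and Sox5 held without any 1 library, and the count higher was 2 without Sham mouse 1. Adgrg1 was lost without Sham mouse 1 or 4, Jag1 without Sham mouse 1, 2 or 3 or BCAS mouse 3, and Lingo1 without any 1 of the Sham mice or BCAS mouse 3 or 4 (adjusted p up to 0.0532, 0.0637 and 0.0925, edgeR).

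Around Pdgfra, 4 of 6 further PDGF genes were higher and 0 lower (median 0.88), against 19.2% and 12.8% of all genes tested. Pdgfa, the ligand of the precursor receptor, was at -0.08 (SE 0.07, adjusted p = 0.439) and Pdgfc at 0.32 (adjusted p = 0.112, edgeR). Of those that rose, Pdgfrb, the receptor of pericytes, was at 1.00 (SE 0.22, adjusted p = 0.0127) and its ligands Pdgfd at 0.99 (SE 0.18, adjusted p = 0.0063) and Pdgfb at 0.77 (SE 0.15, adjusted p = 0.0088, edgeR). The receptor-like gene Pdgfrl was at 1.99 (SE 0.55, adjusted p = 0.0259, edgeR). Pdgfrl was lost without Sham mouse 1, 2 or 3 or BCAS mouse 3 (adjusted p up to 0.0733), and the others held without any 1 library.

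Around Bmp4, 10 of 25 further BMP pathway genes were higher and 1 was lower (median 0.30), against 19.2% and 12.8% of all genes tested. Among ligands, Bmp6 rose by 1.07 (SE 0.17, adjusted p = 0.0038, edgeR) and Bmp5 by 1.04 (SE 0.23, adjusted p = 0.0131), while Bmp2, the closest relative of Bmp4, gave 0.13 (adjusted p = 0.664). Among targets, Id3, a helix-loop-helix protein that restrains differentiation, rose by 1.18 (SE 0.24, adjusted p = 0.0090), Id1 gave 0.68 and Id4 0.53 (adjusted p = 0.0256 and 0.0105), and Id2 gave -0.24 (adjusted p = 0.157, edgeR). Noggin (Nog), the secreted BMP antagonist, fell by 0.75 (SE 0.18, adjusted p = 0.0163), a call lost without Sham mouse 1 (adjusted p = 0.0519, edgeR). Bmp5, Bmp6, Id3 and Id4 held without any 1 library, and Id1 was lost without any 1 of the Sham mice or BCAS mouse 3 or 4 (adjusted p up to 0.0728). The count of 10 was 6 without Sham mouse 1 or 4 or BCAS mouse 4, and without BCAS mouse 2 the number lower was 4.

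Beside Vcan, Cspg4 and Ptprz1, 2 of 12 further proteoglycans and their partners were higher and 2 lower (median -0.07), against 19.2% and 12.8% of all genes tested. Midkine (Mdk), a growth factor that binds Ptprz1, rose by 1.11 (SE 0.19, adjusted p = 0.0051, edgeR), also without any 1 library, and the related Ptn gave 0.02 (adjusted p = 0.867). Tenascin-C (Tnc) rose by 0.92 (SE 0.28, adjusted p = 0.0372), while Hapln4, a link protein of perineuronal nets, fell by 1.13 (SE 0.33, adjusted p = 0.0322), and Tnr fell as given above. Tnc was lost without Sham mouse 1, 2 or 4 or BCAS mouse 1 or 3, and Hapln4 without Sham mouse 1, 2 or 4 or BCAS mouse 3 or 4 (adjusted p up to 0.0965 and 0.0871, edgeR). The lecticans closest to Vcan gave -0.01 for Bcan, -0.13 for Ncan and -0.32 for Acan, none past the test (adjusted p = 0.969, 0.245 and 0.401, edgeR).

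**Figure D4:**
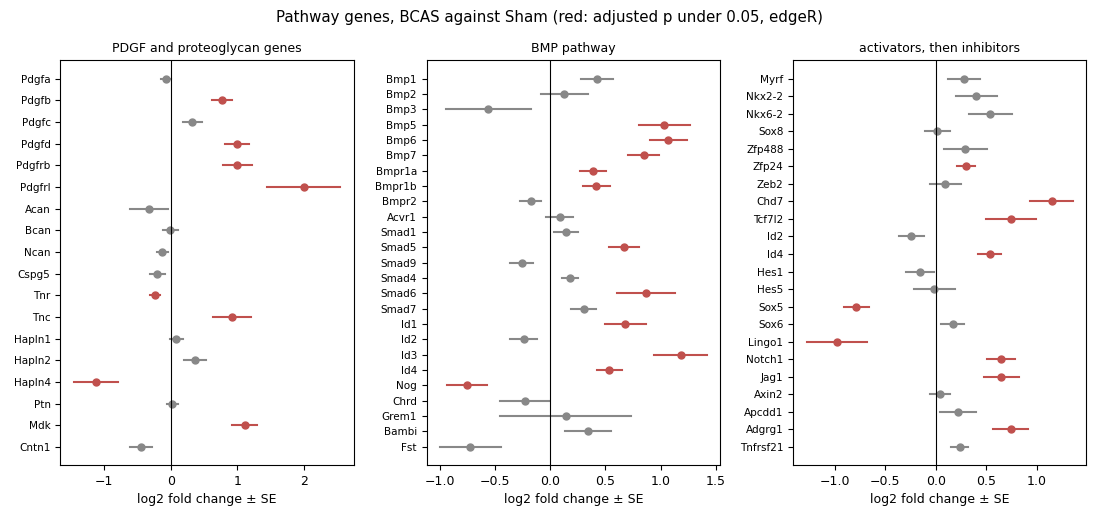
Log2 fold changes with their SE for PDGF and proteoglycan genes (left), BMP pathway genes (middle) and regulators of oligodendrocyte differentiation (right), BCAS against Sham, with the genes past the edgeR test in red. Pdgfa and Ptn lie near 0 (-0.08 and 0.02), while Bmp5, Bmp6 and Id3 lie above 1 and Nog at -0.75.

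Several of the genes are also used outside the lineage: Pdgfra and Vcan by perivascular fibroblasts, Cspg4 by pericytes, Ptprz1 by astrocytes and Bmp4 by vascular cells. Fibroblast markers were all higher, 8 of 8 with a median of 2.75, led by the collagen genes Col3a1 at 4.402 (SE 0.67, adjusted p = 0.0035) and Col1a1 at 3.27 (SE 0.56, adjusted p = 0.0052) and by Lum at 3.13 (SE 0.66, adjusted p = 0.0105, edgeR). Their summed level was 105.7 to 136 CPM in Sham and 992, 209.6, 956 and 485 CPM in BCAS mice 1 to 4. Pericyte markers were higher in 5 of 8 (median 0.68), with Anpep at 2.24 (SE 0.52, adjusted p = 0.0149), Pdgfrb as above and Notch3 at 0.71 (SE 0.16, adjusted p = 0.0140), while Rgs5 gave 0.03 and Higd1b 0.21, not past the test. Their sum was 290.5 to 345 CPM in Sham and 577, 364, 479.5 and 452 CPM in BCAS. The part of fibroblasts and pericytes in the rise of Pdgfra, Vcan, Cspg4 and Bmp4 was not tested, and no marker of these lists was at 0 in any group.

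The other lists are set against the 19.2% higher and 12.8% lower among all genes tested. Of these lists, astrocyte markers were higher in 6 of 8 (median 0.56), with Gfap at 3.90 (SE 0.36, adjusted p = 0.0015), Aqp4 at 1.65 (SE 0.28, adjusted p = 0.0047) and Sox9 at 0.84 (SE 0.15, adjusted p = 0.0063, edgeR). Endothelial markers were higher in 2 of 8 (median 0.32), Cdh5 at 0.87 (SE 0.21, adjusted p = 0.0183) and Pecam1 at 0.58 (SE 0.16, adjusted p = 0.0283, edgeR), and the count was 0 without Sham mouse 2 or 4 or BCAS mouse 3 and 1 without Sham mouse 1 or 3 or BCAS mouse 4. Microglia and macrophage markers were higher in 8 of 8 (median 2.92), led by Cd68 at 4.83 (SE 0.44, adjusted p = 0.0015) and Itgam at 3.19 (SE 0.40, adjusted p = 0.0020, edgeR). Proliferation markers were higher in 8 of 8 (median 2.83), led by Cdk1 at 3.75 (SE 0.62, adjusted p = 0.0046), Aurkb at 3.14 (SE 0.78, adjusted p = 0.0188) and Top2a at 3.02 (SE 0.46, adjusted p = 0.0034, edgeR). That last count fell to 3 without Sham mouse 1, 4 without Sham mouse 2 and 5 without BCAS mouse 3 (Aurkb was lost without Sham mouse 1 or 2, adjusted p up to 0.0608, edgeR), and bulk tissue does not say which cells were dividing. Sham mice 1 to 4 had only 3, 13, 4 and 5 reads of Cdk1 and 6, 3, 0 and 11 of Aurkb. The sizes of their fold changes are therefore uncertain. Mki67, Birc5 and Ube2c overlapped between the groups.
Neuron markers were lower in 5 of 8 and higher in none (median -0.74), with Snap25 at -1.07 (SE 0.26, adjusted p = 0.0172), Rbfox3 at -0.91 (SE 0.20, adjusted p = 0.0115) and Slc17a7 at -0.87 (SE 0.26, adjusted p = 0.0342, edgeR). Rbfox3 held without any 1 library, while Snap25 was lost without Sham mouse 1 or 4 or BCAS mouse 4 and Slc17a7 without any 1 of the Sham mice or BCAS mouse 3 or 4 (adjusted p up to 0.0541 and 0.0880, edgeR); the count of 5 was 1 without Sham mouse 1 or 4 or BCAS mouse 4, 2 without Sham mouse 2 or BCAS mouse 3, and 3 without Sham mouse 3. The neuron sum fell from 9146 to 10541 CPM in Sham to 3648, 7758, 5982 and 5548 CPM in BCAS mice 1 to 4, so the mouse with the highest levels of most oligodendrocyte-lineage genes was also the one with the lowest neuronal share. The part of this shift in the CPM of the 10 genes was not tested.

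**Figure D5:**
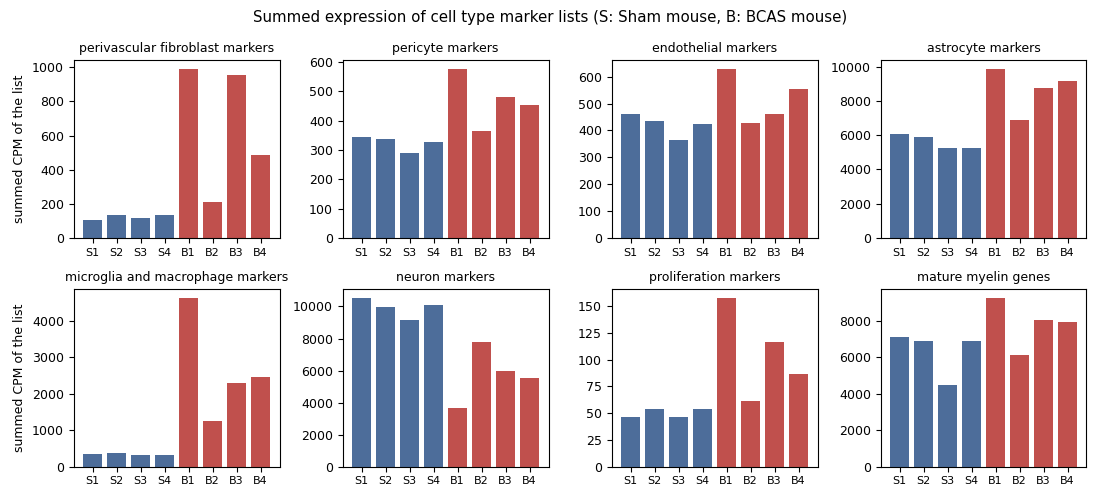
Summed CPM of 8 lists in each library, on linear axes from 0. Blue bars are Sham mice 1 to 4 and red bars BCAS mice 1 to 4. BCAS mouse 1 is highest for fibroblast (992 CPM) and microglial (4633 CPM) markers and lowest for neuronal markers (3648 CPM). Myelin genes overlap between the groups through BCAS mouse 2, with Sham mouse 3 lowest.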

How the data were processed

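RNA-seq was measured in 8 right cortices, 1 library per mouse. The authors deposited raw read counts per gene and library, from HISAT2 alignments to mm10; the file headers name featureCounts 2.0.1 with GENCODE vM20 and no strand option, while the submitters' processing notes name featureCounts 1.6.3, so reads from overlapping antisense genes cannot be told apart. Symbols came from a GENCODE table by gene ID (54723 of 54752 genes). Counts were tested as deposited with edgeR 4.0.16 in R 4.3.3: TMM scaling, a filter (filterByExpr, at least 10 counts and 15 in total), the quasi-likelihood test of BCAS against Sham over 17136 genes and Benjamini-Hochberg adjustment, called at adjusted p under 0.05 and, where stated, a log2 fold change above 1. The scripts were tested on simulated data. All 10 genes were named, and from each further list up to 3 tested genes per direction past the test with the largest change; other genes named were chosen after their values were seen. Some list genes are counted but not reported here by name. The members and lists were chosen with earlier results of these data known; some genes stand in more than 1 list. Groups come from the labels. Alternatives were DESeq2 1.42.0, limma 3.58.1 on voom weights and on log2(CPM + 1), other normalizations and filters, a replicate block and leaving out each library. p-values measure the spread between mice.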

Additional observations from a re-analysis of the deposited data

Results flagged for a closer look

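Enpp6 in Sham mouse 3 was singled out because it lay farther from its group than a test for an outlying value allows. Enpp6 was at 8.34 CPM in Sham mouse 3, and the nearest Sham mouse had 11.9 CPM. It was 1 of 34 groups checked, and chance alone flags about 1 group in 20. Sham mouse 3 also had the lowest summed myelin level of the Sham mice, 4477 CPM, and the lowest Olig1, Olig2 and Sox10; what sets this library apart was not tested.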

How the results depend on the processing

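DESeq2, limma on voom weights, limma on log2(CPM + 1) and the other normalizations each called 7 of the 10 genes higher, and without a filter 6 were called, Ptprz1 being lost. With a replicate block 3 were called (Vcan, Ptprz1, Gpr17 and Enpp6 were lost), and over all genes 3546 against 5490 without it. Mice with the same number did not deviate together (correlations of -0.0455, -0.103, -0.00821 and 0.00126), so the numbers do not pair them. Leaving out each library in turn gave 2 to 9 of the 10 genes called, and 2549 (without Sham mouse 1) to 8166 (without BCAS mouse 2) of all genes. Fewer mice leave fewer degrees of freedom; the cause of the rise without BCAS mouse 2 was not tested. The log2 fold change of Olig2 turned negative without Sham mouse 3 (-0.0071) and without BCAS mouse 1 (-0.024), within a range of -0.024 to 0.26. No alternative called any of the 10 genes lower, and Cspg4 and Bmp4 were called under all 17. Among the 10 genes, depth limits Bmp4 most, at 55 to 237 reads. Some genes of the further lists had fewer, such as Pdgfrl with 8 to 39 and Aurkb with 0 to 11 reads in Sham. With 4 mice per group every comparison is limited: the exact permutation test of a single gene cannot give a p below 0.0286.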
